A study of Mus musculus with 16 samples.

Results

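Sialyltransferases are Golgi enzymes that place sialic acid on the outer end of the sugar chains of glycoproteins and glycolipids. The mouse RefSeq gene table lists 20 of them, in the families St3gal (6 genes), St6gal (2), St6galnac (6) and St8sia (6). On dendritic cells, the antigen-presenting cells of the immune system, sialylated chains are ligands of Siglecs and change as the cells mature. H3K4me1, the single methylation of lysine 4 of histone H3, marks enhancers and the flanks of promoters, and genes with many enhancers often lie in runs of such marks. The neighbourhoods of 4 of these genes are described here by their H3K4me1 summits, that is, the 1 bp positions at which peaks of the mark were highest.

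The members are all summits of the lists for unstimulated dendritic cells and unstimulated 3T3 cells in 3 regions of the mm9 genome. These are chr15:66900000-67950000 (St3gal1 and the stretch upstream of it), chr3:152450000-153900000 (St6galnac5 and St6galnac3) and chr16:23180000-23380000 (St6gal1). They hold 253 summits of 161656 in the 2 lists, 204 of the 79796 dendritic cell summits and 49 of the 81860 3T3 summits. The regions were selected on the summit positions of these same 2 lists and on the genes' names, so the numbers and shares below describe them and are not tested.

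The series has 16 samples, of H3K4me1, H3K27ac, H4ac and input DNA, from stimulated and unstimulated cells of both types, and 2 are used here. The dendritic cells were grown from mouse bone marrow progenitors that had received, by retrovirus, a hairpin that targets the histone demethylase JmjD2d, were selected with histidinol, and were differentiated in GM-CSF. The 3T3 cells, an established mouse fibroblast line, were kept under standard culture and carry no hairpin per the labels. Neither group was stimulated, and the antibody was anti-H3K4me1 clone CMA302 in both. Each cell type is 1 library, so there is no replicate error. Cell type, hairpin and library cannot be told apart as sources of a difference. The cell type field of the 3T3 sample names dendritic cells, against its title, description, growth protocol and file header, and it was used as 3T3. Read numbers were not at hand, so depth is unknown, and where a summit is absent it can only be said that none was called. Neither cell type could be checked at its marker genes, nor could a summit be assigned to a gene, because the gene table at hand is of another build (GRCm38).

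That table gives the order of the genes. St3gal1 is 74.1 kb long and lies between Ndrg1 and Zfat, its nearest protein-coding neighbours. Its enzyme caps the core galactose of O-linked chains. St6galnac5 (162 kb) and St6galnac3 (527 kb) are neighbours of each other, with Pigk on the far side of St6galnac5 and Asb17 on the far side of St6galnac3. Their enzymes add sialic acid to the N-acetylgalactosamine of O-linked chains and gangliosides. St6gal1 (136 kb) lies between Adipoq and Rtp1, and its enzyme makes the sialylated ends of N-linked chains that CD22 recognises.

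Promoter sequences from RefSeq were at hand for 2 of the 4 genes, 1 start for St6galnac3 and 3 for St6gal1. They are shown because these starts are the places the neighbourhoods are named for, but they are of GRCm38 and cannot be set against the mm9 summit positions. The 250 bases before each start were searched on both strands for 4 motifs. These were the GC box GGGCGG, the ETS-type site GAGGAA, the loose AP-1 pattern TGANTCA and the TATA box TATAAA. No 2 of these motifs overlapped in the windows. The window of St6galnac3 lies at chr3:153725134-153725383 on the minus strand and that of the last St6gal1 start at chr16:23290220-23290469 on the plus strand. Capitals mark the motif found in each, the GC box in St6galnac3 and a match to the AP-1 pattern in St6gal1. The N of that pattern allowed any base, and it was A in the match.
St6galnac3: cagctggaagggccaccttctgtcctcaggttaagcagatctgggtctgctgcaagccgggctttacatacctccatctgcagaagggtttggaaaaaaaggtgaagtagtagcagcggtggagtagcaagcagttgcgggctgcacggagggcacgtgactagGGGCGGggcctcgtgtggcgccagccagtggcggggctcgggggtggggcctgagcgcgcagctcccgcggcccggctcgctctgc
St6gal1: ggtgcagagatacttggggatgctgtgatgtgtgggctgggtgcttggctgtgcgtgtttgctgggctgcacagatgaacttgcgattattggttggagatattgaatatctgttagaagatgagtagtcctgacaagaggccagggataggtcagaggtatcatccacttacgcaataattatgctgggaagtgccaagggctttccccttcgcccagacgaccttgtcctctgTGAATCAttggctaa

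The GC box was present in 32.7% of the 32851 promoter windows of the table and the loose pattern TGANTCA in 6.75%. GAGGAA was present in 23.3% and TATAAA in 12.4% of all windows, and in none of the 4 windows of these genes. The other two starts of St6gal1 held none of the 4 motifs. The St6galnac3 window was 64.8% G and C with 16 CpG, against a median of 52.4% and 6 CpG over all windows. The 3 St6gal1 windows were 47.2, 52.8 and 49.6% G and C, with 6, 10 and 5 CpG.

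The 3 neighbourhoods differed in how H3K4me1 of the 2 cell types was laid out. In the St3gal1 region dendritic cell summits ran through the whole stretch, while most 3T3 summits sat at its left end. In the St6galnac5 and St6galnac3 region a stretch of nearly a megabase held dendritic cell summits and no 3T3 summit. In the St6gal1 region summits of both cell types alternated at close range. The plot of summits by position shows the 3 layouts.

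**Figure D1:**
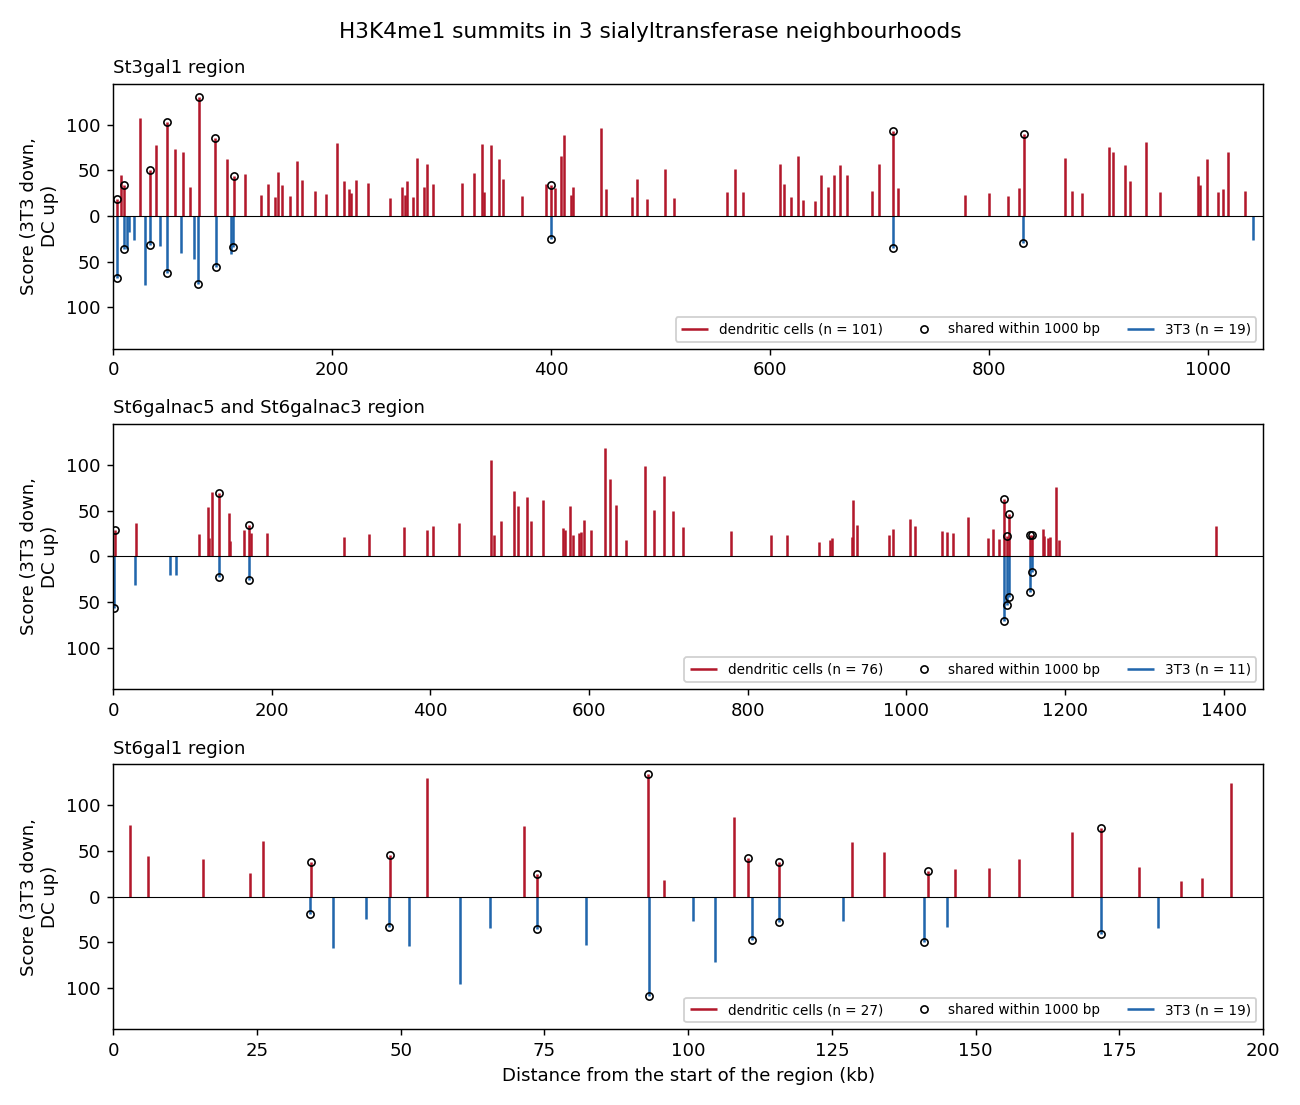
Each line is 1 H3K4me1 summit, placed by its distance in kb from the start of the region, with its deposited score upward for dendritic cells and downward for 3T3. Circles mark summits with a counterpart in the other list within 1000 bp. The St3gal1 region holds 101 and 19 summits, the St6galnac5 and St6galnac3 region 76 and 11, and the St6gal1 region 27 and 19, and only in the St6gal1 region do the lists alternate over most of the width.

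In numbers, the St3gal1 region held 101 dendritic cell summits (exact Poisson 95% interval 82.3 to 123, counting error only) and 19 3T3 summits (11.4 to 29.7). The St6galnac5 and St6galnac3 region held 76 (59.9 to 95.1) and 11 (5.49 to 19.7). The St6gal1 region held 27 (17.8 to 39.3) and 19 (11.4 to 29.7). Per 100 kb this made 9.62, 5.24 and 13.5 dendritic cell summits and 1.81, 0.759 and 9.50 3T3 summits. Over the chromosomes up to their last summit, 3.03 and 3.10 were listed per 100 kb. The St6gal1 region was thus above that average in both lists, and the others were above it in dendritic cells and below it in 3T3.

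Windows of the same length over the autosomes and X, moved in steps of 100 kb, give a second view of these counts. At least as many dendritic cell summits were found in 2.71% of the windows as long as the St3gal1 region, in 22.8% of those as long as the St6galnac5 and St6galnac3 region, and in 1.15% of those as long as the St6gal1 region. At least as many 3T3 summits were found in 58.6, 73.8 and 8.10% of them. The excess of dendritic cell over 3T3 summits was 82, 65 and 8. An excess that large was reached in 5 of 26169 windows for St3gal1 (0.0191%), in 178 of 26089 for St6galnac5 and St6galnac3 (0.682%), and in 2316 of 26340 for St6gal1 (8.79%). The windows overlap each other and the regions, and the regions were picked for such an excess or for their genes, so these shares are ranks and not probabilities.

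A summit was called shared when the other list had one within 1000 bp. In the St3gal1 region, 91 of the 101 dendritic cell summits had no 3T3 counterpart (90.1%, exact Clopper-Pearson 95% interval 82.5 to 95.1), and in the St6galnac5 and St6galnac3 region 68 of 76 (89.5%, 80.3 to 95.3). Over the whole dendritic cell list it was 69.4%. In the St6gal1 region it was 19 of 27 (70.4%, 49.8 to 86.2), close to the share over the list. Of the whole 3T3 list, 70.2% had no dendritic cell counterpart. The regions had 9 of 19 (47.4%, 24.4 to 71.1), 3 of 11 (27.3%, 6.02 to 61.0) and 11 of 19 (57.9%, 33.5 to 79.7). All 3 shares were lower than the list's, but the intervals of the St3gal1 and St6gal1 regions contained the list's value. The intervals treat neighbouring summits as independent draws, and the regions were selected on the same summits. A difference from the list was therefore not tested for any of the regions. A summit has more chances of a counterpart where the other list is dense, and the part of density in these shares was not tested.

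Distances to the other list separated the regions more than the shares did. The median dendritic cell summit lay 50.2 kb from the nearest 3T3 summit in the St3gal1 region and 168 kb in the St6galnac5 and St6galnac3 region, against 3.15 kb in the St6gal1 region and 3.23 kb over the list. More than 20 kb from any 3T3 summit were 71 of 101 (70.3%), 56 of 76 (73.7%) and 0 of 27, where the list had 15.6%. In the reverse direction, 0 of 19, 2 of 11 and 0 of 19 3T3 summits lay more than 20 kb from a dendritic cell summit, where the 3T3 list had 25.0%. So all but 2 of the 49 3T3 summits stood within 20 kb of a dendritic cell summit, but most dendritic cell summits of the St3gal1 and the St6galnac5 and St6galnac3 regions stood far from any 3T3 summit.

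St3gal1 comes first in detail. In windows of 50 kb from the start of the region, the 3 windows from 66900001 to 67050000 held 18 dendritic cell and 15 3T3 summits. The remaining 18 windows, from 67050001 to 67950000, held 83 (66.1 to 103) and 4 (1.09 to 10.2). This division at a window border was made after the counts were seen. Dendritic cell summits were about as dense on either side of it, at 12 and 9.22 per 100 kb, so the change at this place was in the 3T3 list. Every one of the 21 windows held a dendritic cell summit, from 2 to 9 each, and 14 of them held no 3T3 summit. Genome-wide, 29604 windows of this size contained a summit, and in 15.2% of them all were from dendritic cells.

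Of the 4 3T3 summits in the long right part, 3 scored below the median of their list and 1 just above it. They lay at 67299541 (score 25), 67611914 (35), 67730744 (29) and 67940705 (26), where the median of the 3T3 list was 33. The score is the deposited value at the summit, taken as the height of the peak, and it was not scaled between the lists. The first 3 of the 4 had a dendritic cell counterpart, with scores of 34, 93 and 90. The last had none within 1000 bp, its nearest dendritic cell summit being 7.24 kb away.

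The sparse 3T3 summits of the right part bounded 4 long stretches, of which 3 held many dendritic cell marks. From 67009443 to 67299541, over 290 kb, lay 36 dendritic cell summits and no 3T3 summit. From 67299541 to 67611914, over 312 kb, lay 30, and from 67730744 to 67940705, over 210 kb, lay 17. Among the 81838 stretches between neighbouring 3T3 summits in the genome, these rank 11, 21 and 116 by the number of dendritic cell summits inside. The fourth stretch, from 67611914 to 67730744 over 119 kb, held 5 dendritic cell summits with a median score of 25, none of which reached the list median, and it ranks 1634. The median number inside was 0 and the median length was 9.17 kb, and 466 stretches (0.569%) held 10 or more. The ranks were not adjusted for length. The regions were selected on these same summits, so the ranks only describe them.

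**Figure D2:**
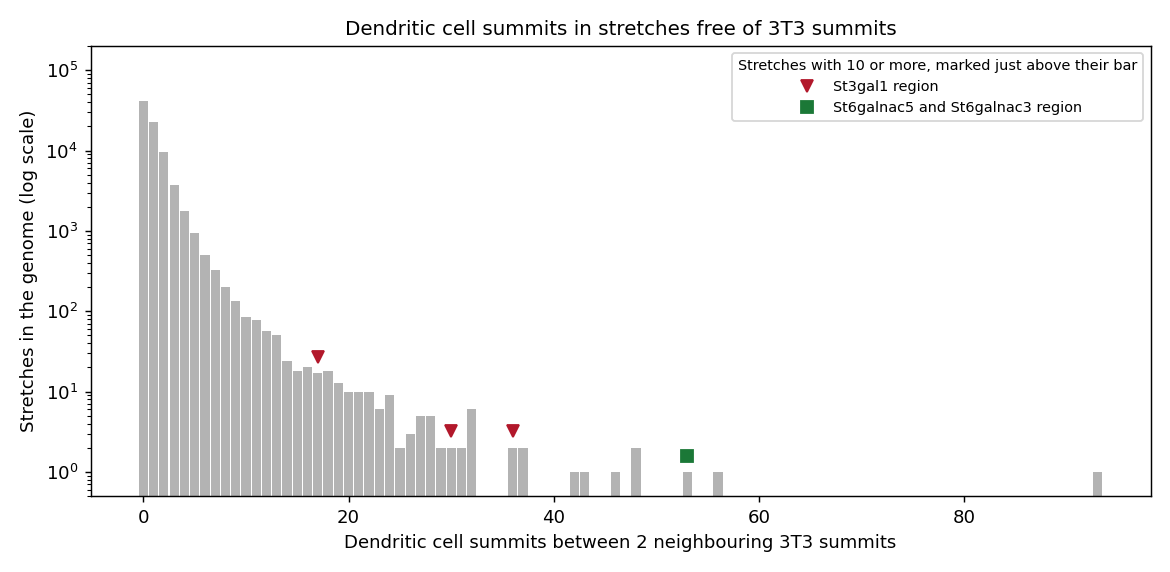
Bars count, on a log scale, the stretches between neighbouring 3T3 summits over the genome by the number of dendritic cell summits inside them. Triangles mark the stretches of the St3gal1 region with 17, 30 and 36, and the square marks that of the St6galnac5 and St6galnac3 region with 53. No stretch of the St6gal1 region reached 10. The numbers are not adjusted for the length of a stretch.

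Of the 5 tallest dendritic cell summits of the St3gal1 region, 3 were at its left end. The 5 lay at 66977929 (score 130), 66924773 (107), 66949097 (103), 67345103 (96) and 67611833 (93). Only 1.15% of the dendritic cell list reached 130, and 5.90% reached 93. The first 3 lie among the 3T3 summits, those at 66977929 and 66949097 with 3T3 counterparts of 74 and 62. The 3T3 summit nearest to 66924773 was 4139 bp away, scored 75, and was the highest 3T3 summit of the region. The next 3T3 summits in height were 66977693 (74), 66903191 (68), 66948955 (62) and 66993472 (56), so all of the 5 highest were in the first 3 windows. The median dendritic cell score was 48 in the first 3 windows and 35 in the others, against 36 over the list. In the long right part the mark was thus frequent and of ordinary height.

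Summits up to 10 kb apart were joined into clusters to describe their spacing. The 101 dendritic cell summits of the St3gal1 region fell into 36 clusters, 14 of them single summits, and 8 clusters of 5 or more held 53 summits. The largest, with 8 summits each, ran from 66924773 to 66977929, from 67034845 to 67072324 and from 67163646 to 67192346. The first of these also held 7 3T3 summits and the others none. Their median scores were 75.5, 34.5 and 33.5. Between neighbours the median spacing was 6.60 kb, against 8.17 kb over the list, and the longest empty stretch was 61.3 kb, from 67616415 to 67677690.

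St6galnac5 and St6galnac3 lay in a region with the longest one-sided stretch. From 152621658 to 153573690, over 952 kb, there were 53 dendritic cell summits and no 3T3 summit. None of the 53 had a 3T3 summit within 1000 bp, but inside such a stretch only summits next to its ends could have one. By the number of dendritic cell summits inside, not adjusted for length, this stretch ranks 3 of the 81838 in the genome. Their median length was 9.17 kb, and the region was selected on these same summits. The 18 windows from 152650001 to 153550000 held 48 dendritic cell summits (35.4 to 63.6) and 0 3T3 summits, with an upper bound of the exact interval of 3.69. The dendritic cell density of these windows, 5.33 per 100 kb, was lower than that of the St3gal1 region.

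All 5 of the tallest dendritic cell summits of the St6galnac5 and St6galnac3 region were inside that stretch. They lay at 153070091 (score 119), 152926278 (106), 153120755 (99), 153143976 (88) and 153076963 (85). The nearest 3T3 summit was between 304620 and 455305 bp away from each. They gathered between 152926278 and 153143976, and the cluster with most members, 8 summits from 153017593 to 153051834 with a median score of 29, lies between them. Most of the 53 summits were low, with a median of 30 and a lowest score of 16, and 20 of them reached the list median of 36.

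The 11 3T3 summits of the region formed a left and a right group. On the left lay 152451311 (score 56), 152477035 (31), 152521504 (20), 152529592 (20), 152583546 (22) and 152621658 (26). On the right lay 153573690 (71), 153577155 (53), 153579785 (44), 153605906 (39) and 153608184 (17). The right group was shared in full: each of its 5 summits had a dendritic cell summit within 1000 bp, at 96, 622, 193, 463 and 94 bp. The dendritic cell scores there were 63, 22, 46, 24 and 23. On the left, 3 of 6 were shared, and over the whole 3T3 list 29.8% were. The groups were formed after the positions were seen, and the part of dendritic cell density in their sharing was not tested. The windows from 153550001 to 153650000, which contain the right group, held 6 and 8 dendritic cell summits, 14 in 100 kb. The 8 were the most in any window of the region. To the right of these windows dendritic cell summits ended as well. A single one, at 153840282 (score 33), lay in the last 250 kb, with a gap of 198 kb before it.

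Spacing in this region was uneven. The 76 dendritic cell summits made 38 clusters, of which 21 were single summits and 3 had 5 or more. The median spacing was 8.96 kb, close to the list's 8.17 kb, and its 75th percentile was 22.6 kb, against 17.0 kb over the list. Of the 29 windows, 18 held dendritic cell summits alone, 1 held 3T3 summits alone, 5 held both and 5 held none.

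St6gal1, on chromosome 16, showed the mark in both cell types at high density. Its 4 windows of 50 kb held 7, 5, 7 and 8 dendritic cell summits and 4, 6, 7 and 2 3T3 summits, so no window was free of either. The first 3T3 summit lay 34.2 kb inside the left border, and 5 dendritic cell summits came before it. Of the 27 dendritic cell summits 16 (59.3%) had a 3T3 summit within 5 kb, as did 59.3% of the whole list. Of the 19 3T3 summits 15 (78.9%) had a dendritic cell summit within 5 kb, against 56.1% of the 3T3 list. The median spacing was 6.10 kb in dendritic cells and 7.09 kb in 3T3.

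The tallest summit of both lists in the St6gal1 region was at the same place. The dendritic cell summit at 23273064 scored 134, which 0.955% of the list reached, and the 3T3 summit at 23273101, 37 bp away, scored 109, which 3.08% of the 3T3 list reached. The next dendritic cell summits were 23234494 (130), 23374357 (125), 23287972 (87) and 23182856 (79), none of them shared within 1000 bp. The nearest 3T3 summits were 3008, 12736, 3152 and 15449 bp away. The next 3T3 summits were 23240228 (95), 23284639 (71), 23218250 (56) and 23231486 (54), also not shared, with dendritic cell summits at 5734, 3333, 3845 and 3008 bp. The dendritic cell summits at 23234494 and 23287972 thus had high 3T3 summits a few kb away, while those nearest to 23374357 and 23182856 were farther off and scored 34 and 28. Unshared summits were the majority in general, with 69.4% of the dendritic cell list and 70.2% of the 3T3 list.

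At 10 kb the 27 dendritic cell summits of the St6gal1 region joined into 6 clusters, none a single summit. The largest had 12 summits over 65.8 kb, from 23308516 to 23374357, with 4 3T3 summits inside. The longest stretch without a dendritic cell summit was 19.3 kb, from 23253743 to 23273064, and it contained 2 3T3 summits.

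Scores over the regions differed less than numbers. The median dendritic cell score was 36 (25th to 75th percentile 26 to 60) in the St3gal1 region, 30 (23 to 48.5) in the St6galnac5 and St6galnac3 region and 42 (31 to 73) in the St6gal1 region, against 36 (26 to 55) in the list. At or above the list median were 52 of 101 (51.5%, 41.3 to 61.6), 28 of 76 (36.8%, 26.1 to 48.7) and 18 of 27 (66.7%, 46.0 to 83.5), where the list had 50.8%. The share of the St6galnac5 and St6galnac3 region was below that value and the other shares were above it. The intervals treat neighbouring summits as independent draws, and the regions were selected on the same summits. A difference from the list was therefore not tested. The median 3T3 scores were 36, 31 and 35, against 33 in the 3T3 list. Of the 19, 11 and 19 3T3 summits, 13, 5 and 14 were at or above that median, where the list had 51.2%.

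**Figure D3:**
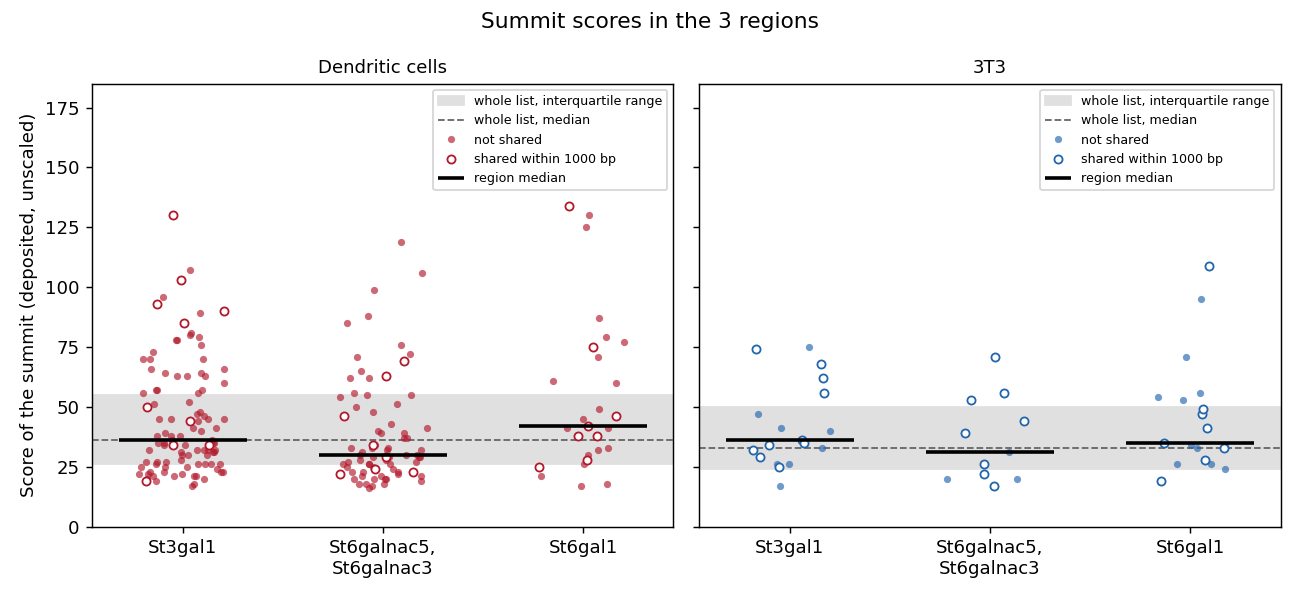
Each point is the deposited score of 1 summit, for dendritic cells on the left and 3T3 on the right. Open points are shared within 1000 bp, black bars are region medians, and the grey band and dashed line are the interquartile range (25th to 75th percentile) and the median of the whole list. The medians of the dendritic cell summits are 36, 30 and 42, and points of every region fill the band and extend above it.

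In the St3gal1 region shared dendritic cell summits were higher than the others, with a median of 67.5 over 10 summits against 35 over 91. Of the 10, 7 lay in the first 3 windows, where all dendritic cell summits had a median of 48, against 35 in the remaining windows. Sharing and position were thus not told apart. The list medians were 40 for shared and 34 for unshared summits. The other regions did not show such a gap, with 31.5 against 30 in the St6galnac5 and St6galnac3 region and 40 against 45 in the St6gal1 region. The groups overlap in all 3 regions, and these small sets were not tested.

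The 26 sites called in both cell types allow a comparison of heights, as the log2 ratio of the 3T3 to the dendritic cell score relative to the median of all 24378 such pairs in the genome. Over all pairs the 25th percentile was -0.53 and the 75th was 0.54. In the St3gal1 region the median of 10 pairs was -0.50, and 8 were below 0. The lowest was the pair at 67731425 with scores of 90 in dendritic cells and 29 in 3T3 (-1.51), followed by that at 67611833 with 93 and 35 (-1.29). The highest was that at 66903161, at the left border, with 19 and 68 (1.96). Pairs of the St3gal1 region were thus mostly higher in dendritic cells, with the opposite at its edge.

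In the St6galnac5 and St6galnac3 region the median of 8 pairs was 0.18, with 5 above 0. Its extremes were the pair at 152583873, with 69 in dendritic cells and 22 in 3T3 (-1.53), and the pair at 153576533, with 22 and 53 (1.39). In the St6gal1 region the median of 8 pairs was -0.25, with 3 above 0, and the range ran from -0.88 to 0.93. The 2 summits of its pairs were a median of 97 bp apart, against 182 bp over all pairs, but the single distances ran from 23 to 673 bp. Along the whole of chromosomes 15, 3 and 16 the median relative ratios were 0.06, -0.03 and -0.08, all close to 0. Chromosome 15 had 4.25% of the dendritic cell summits and 4.79% of the 3T3 summits, and chromosome 3 had 5.18 and 5.45%. On chromosome 16 it was the reverse, with 3.75 and 3.47%.

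**Figure D4:**
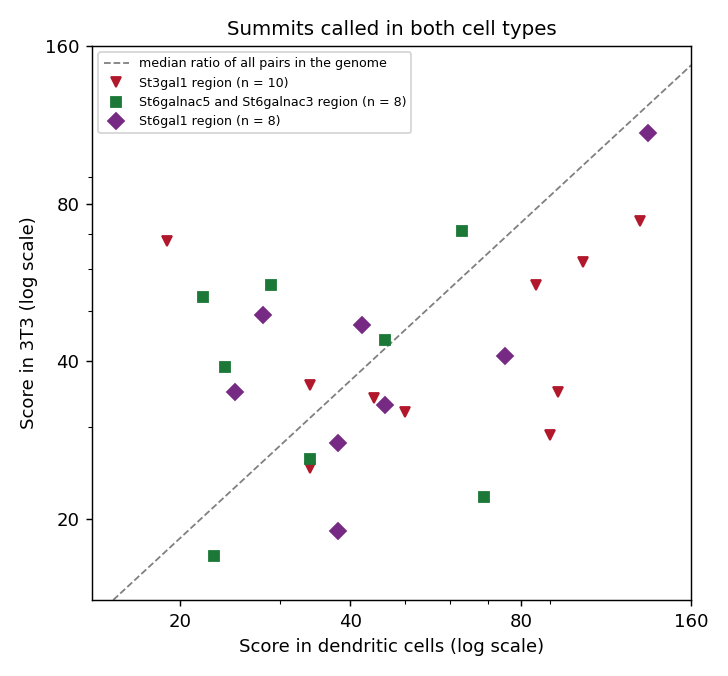
Each point is 1 site with mutually nearest summits in both lists within 1000 bp, by its dendritic cell score and its 3T3 score, both on log axes. The dashed line is the median ratio of all 24378 pairs. Of the 10 pairs of the St3gal1 region 8 lie below it, as do 3 of 8 of the St6galnac5 and St6galnac3 region and 5 of 8 of the St6gal1 region.

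Flanks as long as each region show where the layouts end. Left of the St3gal1 region there were 76 dendritic cell and 49 3T3 summits. Of 21 windows, 6 held dendritic cell summits alone, all from 65850001 to 66450000, and 4 were empty. Genome-wide, 15.2% of the windows with a summit held dendritic cell summits alone. Each window from 66500001 to 66900000 held 5 to 9 dendritic cell and 5 to 7 3T3 summits. Right of the St3gal1 region there were 24 and 13, and 14 of 21 windows were empty. Left of the St6galnac5 and St6galnac3 region 3T3 summits outnumbered dendritic cell summits, with 101 (82.3 to 123) against 50 (37.1 to 65.9), and no window there held dendritic cell summits alone. To its right there were 26 of each, but not evenly mixed. Of 29 windows there, 6 held dendritic cell summits alone, 9 held 3T3 summits alone, 5 held both and 9 were empty. All of those with dendritic cell summits alone lay from 154500001 to 154900000, and the window from 154700001 held 7. The St6gal1 region had 16 and 12 summits on its left and 15 and 17 on its right, so dendritic cell summits led in the region and its left flank, by 27 to 19 and 16 to 12, and 3T3 summits led slightly in the right flank.

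**Figure D5:**
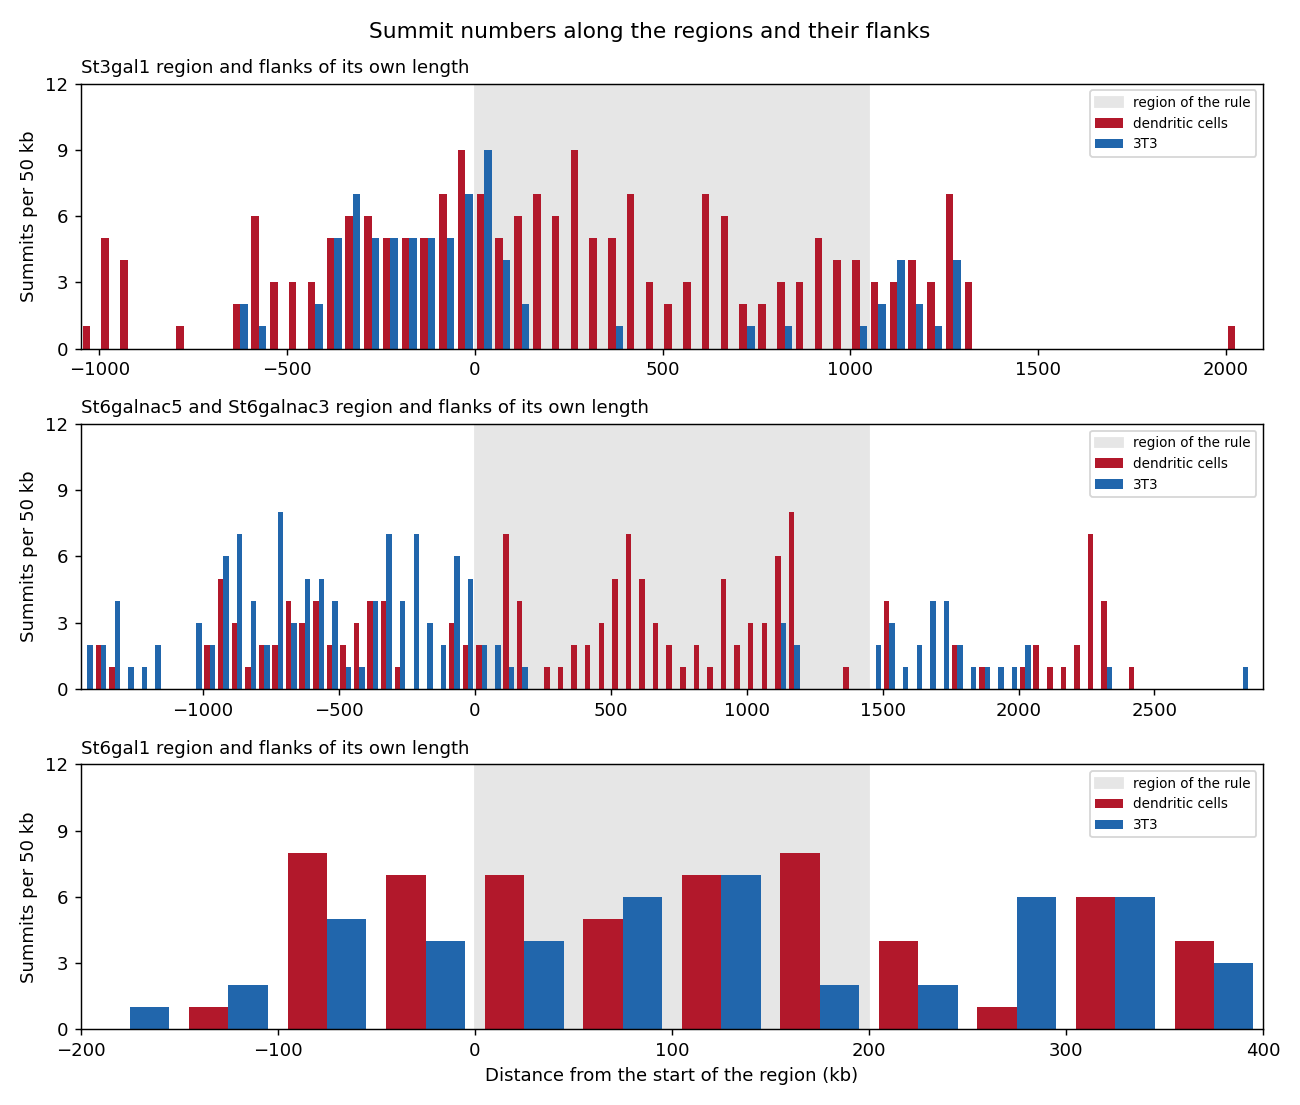
Bars give the number of summits in consecutive windows of 50 kb, in dendritic cells (red) and 3T3 (blue), by distance in kb from the start of the region. The shaded part is the region and the white parts are flanks of the same length. In the flank left of the St6galnac5 and St6galnac3 region 3T3 leads with 101 to 50 summits, whereas inside the region dendritic cells lead with 76 to 11.

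The borders were set by the rule and cut through marked chromatin in places. At the left border of the St3gal1 region the dendritic cell summit just inside, at 66903161, scored 19, and that just outside, at 66898455, scored 48. At its right border the values were 28 at 67933461 and 28 at 67966715. At the left border of the St6galnac5 and St6galnac3 region they were 29 at 152452022 and 16 at 152430619, and at the right 33 at 153840282 and 40 at 153951713. At the St6gal1 region they were 79 at 23182856 and 67 at 23175498 on the left, and 125 at 23374357 and 37 at 23382939 on the right.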

How the data were processed

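ChIP DNA from fixed nuclei was sheared to about 300 bp, amplified over 18 PCR cycles and read singly for 36 bp, per the labels' protocols. Bowtie alignment and peak calling with MACS 1.4, on mm9, are named in the submitters' processing notes. The p threshold was 1e-04 and the shift 150 bp, per the file headers, and neither a fragment model nor local background was used. The use of input DNA in calling was not stated. The authors deposited a position and an unnamed whole number per summit, taken here as a signal (peak height), as MACS writes it. Without local background, repeats and extra DNA copies can give summits, and 1 broad domain can give several.

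Groups came from sample titles, and regions from the rule, with positions 1-based. Exact intervals, distances between lists, pairs, clusters, windows and flanks were computed, in Python 3.11.15 with numpy 2.4.6, pandas 2.3.3 and scipy 1.17.1, and plotted with matplotlib 3.10.9. The distance step was checked by direct calculation on summits drawn from these lists and on simulated positions. The merging and border steps were checked on small made-up sets. No p-value was computed, with 1 library per cell type. The naming rule allowed the 5 highest summits of each list and region, shared pairs, the largest clusters, the longest gaps and border summits, and the text names a part of these. The other 3T3 summits of chromosomes 15 and 3 were named after their values were seen. Regions, lists and motifs were chosen with earlier results of these data known. A planned comparison of the 4 proteins was not run. The other 14 samples were not analysed here.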

Additional observations from a re-analysis of the deposited data

How the results depend on the processing

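Of 97 recomputed values, 64 stayed within the interval of the reported value, or within 1.5 times it for a count, and 33 moved. The 64 include all values after merging summits within 1000 bp. That setting could change nothing, as neighbouring summits of a list in the regions were all farther apart. Keeping summits at or above their list's median, which removes about as many as it keeps, left 52 (St3gal1), 28 (St6galnac5 and St6galnac3) and 98 (all 3 regions) dendritic cell summits, and 5 (St6galnac5 and St6galnac3) and 32 (all) 3T3 summits. Equal numbers of top-scoring summits left 52, 28 and 98 dendritic cell summits in the same places. They left 12 3T3 summits in the St3gal1 region, 5 in that of St6galnac5 and St6galnac3, 12 in that of St6gal1 and 29 in all. With these 2 settings the share of unshared 3T3 summits rose from 46.9% to 65.6 and 65.5% over the 3 regions, and that of the whole 3T3 list to 77.7% in both.

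Borders moved 50 kb inward left 12 dendritic cell summits in the St6gal1 region, and 9 3T3 summits in the St3gal1 region and 31 in all. Moved outward, they gave 18 3T3 summits in the St6galnac5 and St6galnac3 region. Shared within 5000 bp, the unshared dendritic cell share was 80.2% (St3gal1), 40.7% (St6gal1) and 77.5% (all), against 40.7% of the list. The unshared 3T3 share was then 15.8% (St3gal1), 21.1% (St6gal1) and 18.4% (all), against 43.9%. Within 250 bp it was 92.2% for dendritic cells (all), against 82.2% of the list, and 63.6% (St6galnac5 and St6galnac3) and 67.3% (all) for 3T3, against 82.7%. Cluster numbers depended on the joining distance, with 71, 59 and 19 at 5 kb and 14, 23 and 1 at 20 kb in the 3 regions. No library could be left out, and no paired analysis was possible because each group has a single sample.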
